A study of Rattus with 6 samples.

Results

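The genes of the proteasome were followed in cultured rat pituitary tumour cells exposed to aspirin. The set holds every gene of the deposited exon table whose symbol begins with Psma to Psmg and a number, together with Pomp, 48 genes with 430 listed exons out of 12801 genes with 118147 exons. RC-4B/C, a cell line derived from a rat pituitary adenoma, was treated with ASA (acetylsalicylic acid, aspirin) or with DMSO (the solvent dimethyl sulfoxide, labelled as control), and polyadenylated RNA of 3 ASA and 3 DMSO libraries was sequenced. The labels give no dose, duration or culture of origin, so p-values measure only the spread between these libraries, which may be technical. One cell line was sampled, no other genotype or agent is named, and the GH3 line that the series design mentions is not analysed here.

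The proteasome is the protease that degrades proteins tagged with ubiquitin. Its barrel-shaped core consists of outer alpha rings, which control entry, and inner beta rings, which carry the cutting sites. A regulatory particle of ATPase and non-ATPase subunits docks on the alpha ring, recognises and unfolds the substrate, and feeds it into the core. In immune tissue and after interferon, the cutting subunits Psmb5, Psmb6 and Psmb7 are replaced by Psmb8, Psmb9 and Psmb10, which forms the immunoproteasome. In secretory cells the same machine also clears proteins that fail to fold in the endoplasmic reticulum.

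By role, 7 members belong to the alpha ring, 7 to the constitutive beta ring, 3 to the immunoproteasome, 6 to the regulatory ATPases, 11 to the regulatory non-ATPases, 5 to activators and an inhibitor and 7 to assembly factors. Psma3l was counted with the alpha ring because RefSeq gives it as a synonym of Psma3. Another 2, Psmc3ip and Psme3ip1, match by name only. They encode a recombination factor and a partner of Psme3, not subunits. Pomp, which guides assembly of the beta ring, Psma8, a testis subunit, and Psmb11, a thymus subunit, had no row in the table and are not analysed here. All 48 members passed the filter of a mean of at least 0.5 reads per kilobase of exon and 1000000 library reads (RPKM).

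As recovered from the deposited values, between 66492453 and 94486062 reads lay in the listed exons of a library, and the lowest member count was 66 reads (Psma3l). The lineage factor Pou1f1 lay between 584 and 804 RPKM in the 6 libraries and Prl, which encodes prolactin, between 14037 and 62170, while Gh1, Lhb, Fshb and Tshb of the 11 pituitary markers had no row. Of the 7 with a row 1 fell, where 4.99% of all tested genes fell. Cga, which encodes the alpha chain shared by glycoprotein hormones, had 3.24, 4.17 and 1.16 RPKM in ASA and 28.3, 23.8 and 25.2 in DMSO libraries. Its log2 fold change was -3.3 ± 0.45 (limma adjusted p = 0.0137). Chga, which encodes the granule protein chromogranin A, had 101, 104 and 93.7 RPKM in ASA and 125, 184 and 152 in DMSO libraries, with no overlap and a log2 fold change of -0.61 that did not pass (limma adjusted p = 0.0771). The part of either in the results was not tested. Of other cell types, 1 of 5 leukocyte markers (Cd74), 1 of 4 fibroblast markers (Dcn) and 0 of 3 endothelial markers had a row, and Ptprc, Csf1r, Col1a1, Col1a2, Pdgfra and Pecam1 were among those with none. Cd74 lay between 9.67 and 23.6 RPKM in ASA and between 14.2 and 27.3 in DMSO libraries. Dcn was higher, between 2113 and 3207 RPKM in ASA against 1067 to 1108 in DMSO libraries, and its part in the results was not tested. ASA replicate 2 stood apart: its exons within a constitutive subunit gene scattered by a median of 0.351 (log2) around the gene's own shift, against 0.049 and 0.08 in the other ASA and 0.025 to 0.032 in the DMSO libraries.

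Genes of the constitutive proteasome were lower in the aspirin-treated cells, with 30 of 31 log2 fold changes below 0, of which 8 passed the test. Over all tested genes 53.5% of log2 fold changes lay below 0, and 4.99% of genes passed as lower. The 31 genes of the alpha ring, beta ring and regulatory particle together took 6505, 4246 and 4991 reads per 1000000 in ASA replicates 1, 2 and 3, against 9120, 7370 and 9046 in DMSO replicates 1, 2 and 3. Every ASA library lay below every DMSO library. Relative to the DMSO mean, the median of these genes was -0.51, -1.01 and -0.73 (log2 level) in ASA replicates 1, 2 and 3 and 0.12, -0.19 and 0.1 in DMSO replicates 1, 2 and 3, and over all 12502 tested genes the same median was 0.08, -0.28 and 0.06 after ASA and -0.03 to 0.03 after DMSO. In bulk RNA, fewer cells of a type and less RNA per cell cannot be told apart.

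Per gene, the test was limma on log2(RPKM + 0.1) over all 12502 tested genes, ASA minus DMSO, at a Benjamini-Hochberg adjusted p under 0.05. Of the 48 members 9 fell, where 4.99% of all tested genes fell, and none rose, where 6.21% of all tested genes rose. At an unadjusted p under 0.05 there were 29 members, 28 of them lower, and 3753 of all 12502 tested genes in either direction. Limma's voom on recovered reads called 10 members lower and none higher, and 621 lower and 761 higher over all genes. A negative log2 fold change was found in 39 of 48 members and in 53.5% of tested genes, and the median was -0.62 in members and -0.06 over all tested genes. All ASA libraries lay below all DMSO libraries in 29 members, where 18.8% of tested genes did so, and above them in 5, where 19.9% did so. The 9 genes that fell were Psma2, Psma5 and Psma6 of the alpha ring, Psmb2, Psmb3, Psmb5 and Psmb7 of the beta ring, the immunoproteasome subunit gene Psmb10 and the ATPase gene Psmc4.

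**Figure D1:**
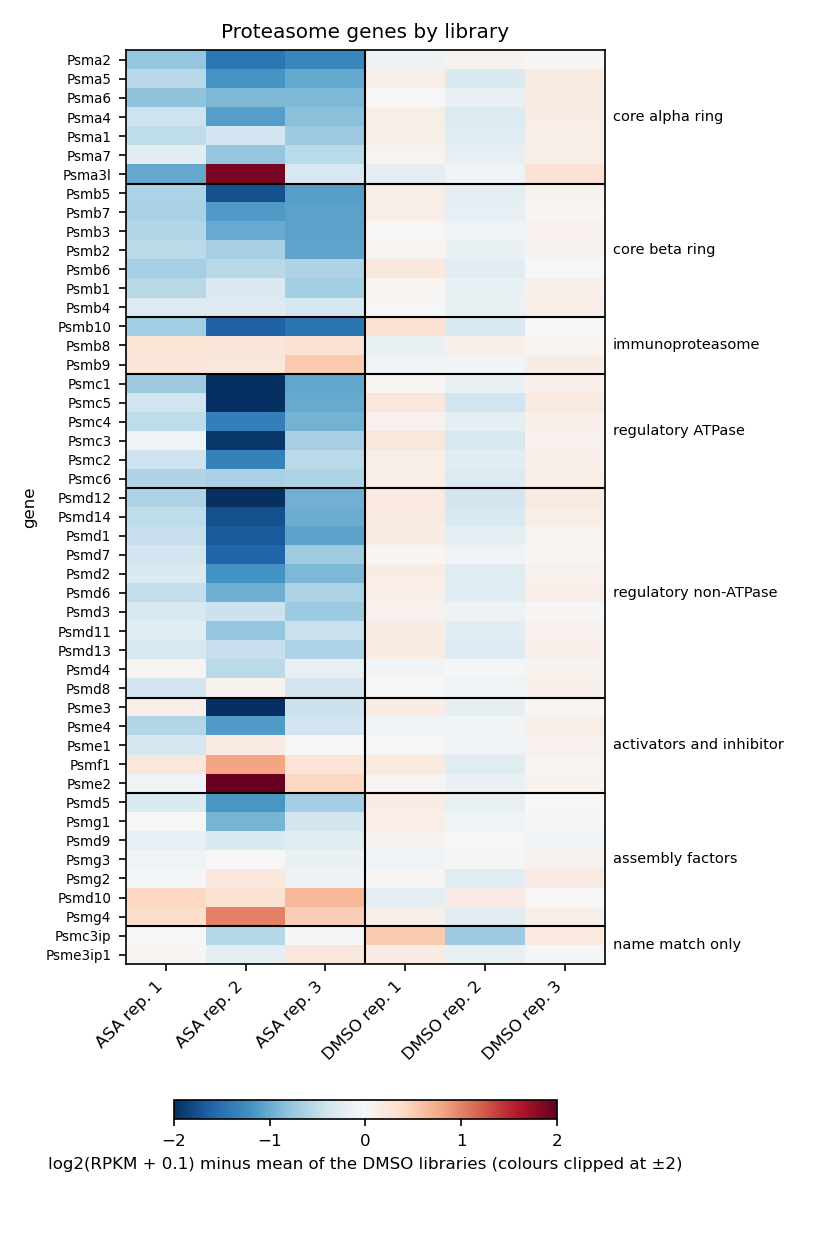
Heat map of the 48 proteasome genes (rows, grouped by role) in 3 ASA and 3 DMSO libraries (columns). Colour gives log2(RPKM + 0.1) minus the mean of the DMSO libraries, clipped at 2 in either direction. The alpha ring, beta ring and regulatory rows are mostly blue in all ASA libraries, whereas Psmb8, Psmb9, Psmf1, Psmd10 and Psmg4 are red in all 3. The regulatory rows are darkest in ASA replicate 2, except Psmd3, Psmd8 and Psmd13.

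In Rnor_6.0, the rat genome build that the submitters' processing notes name, the listed exons of Psma2 (ENSRNOG00000049920) span 53092081 to 53102318 of chromosome 17, and those of Psmb5 (ENSRNOG00000013386) span 33259091 to 33263623 of chromosome 15. Psmb7 lies between 22890206 and 22951831 of chromosome 3 and Psmc4 between 84978312 and 84986524 of chromosome 1. The others that fell lie on chromosome 2 (Psma5), 6 (Psma6), 5 (Psmb2), 10 (Psmb3) and 19 (Psmb10), so the called genes are spread over 9 chromosomes.

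The calls depended on single libraries. Without ASA replicate 1 there were 19 members lower (8.3% of all tested genes were), without ASA replicate 2 there were 17 (8.07%), and in both fits all 9 genes remained called. Without DMSO replicate 2 only Psma6 was called (2.55% of all tested genes lower). Without DMSO replicate 1 no member was called (0.336% of all tested genes lower), nor without ASA replicate 3 or DMSO replicate 3, where limma called 0 of all tested genes lower (0%) and 2924 and 2342 genes lay under an unadjusted p of 0.05 (2569 without DMSO replicate 1). In those 3 fits 21, 17 and 15 members still had an unadjusted p under 0.05 (without ASA replicate 3, DMSO replicate 1 and DMSO replicate 3), and in each of the 6 fits 38 to 41 members had a negative log2 fold change. DMSO replicate 2 had the lowest level of its group in 28 of the 31 constitutive genes. It was also the DMSO library with the lowest level of the proliferation marker Mki67 (16.4 RPKM, where DMSO replicates 1 and 3 had 55.7 and 44.8 and the ASA libraries between 2.58 and 7.92). The part of proliferation in the result was not tested.

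The exons told the same direction as the genes. Of the 289 listed exons of the 31 constitutive genes 276 had a lower mean in ASA than in DMSO libraries, 95.5%, against 54.9% of the 117801 exons of tested genes. All ASA libraries lay below all DMSO libraries in 194 of these exons (67.1%) and above them in 0, where 16.7% of all exons lay below and 17.3% above. In 24 of the 31 genes every listed exon was lower in the mean, a count that was not made over all tested genes. Exons of a gene share their transcripts and are not independent measurements.

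Among the alpha ring genes, whose products form the gate of the core, 3 of 7 fell, where 4.99% of all tested genes fell. Psma2 measured 112, 70.2 and 77.4 RPKM in ASA replicates 1, 2 and 3, against 179, 200 and 195 in DMSO replicates 1, 2 and 3, and fell 2.25-fold (log2 fold change -1.17 ± 0.21 SE, limma adjusted p = 0.0216). Psma5 had 209, 134 and 151 RPKM in ASA and 332, 249 and 345 in DMSO libraries, 1.89-fold lower (limma adjusted p = 0.0445). The groups of both genes were separate, and for Psma5 DMSO replicate 2 came closest to the ASA libraries. Psma6 had 40.2, 37.7 and 37.9 RPKM in ASA and 70.8, 63.2 and 78 in DMSO libraries, with a log2 fold change of -0.87 ± 0.17 (limma adjusted p = 0.0272). Its ASA libraries were the most alike of the 3 genes, with an SD of 1.38 RPKM, and RefSeq names 5 further Psma6 loci, all pseudogenes.

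Psma4, Psma1 and Psma7 did not pass the threshold, with log2 fold changes of -0.78, -0.54 and -0.52 (limma adjusted p = 0.0669, 0.108 and 0.132), though none of their groups overlapped. Psma3l was the lowest member in level, with 1.76, 14 and 2.95 RPKM in ASA and 3.22, 3.46 and 4.5 in DMSO libraries. ASA replicate 2 was far above the other 5 libraries, and 20% of the Psma3l values were not whole reads. Its log2 fold change was 0.18 with a 95% interval of -1.43 to 1.8, and -0.67 without ASA replicate 2.

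In the constitutive beta ring 4 of 7 genes fell, and in all 7 the ASA libraries lay below the DMSO libraries. Of all tested genes 4.99% fell, and in 18.8% the ASA libraries lay below the DMSO libraries. Psmb5, the subunit that cuts after hydrophobic residues, had 269, 124 and 196 RPKM in ASA replicates 1, 2 and 3 and 455, 369 and 439 in DMSO replicates 1, 2 and 3, with a log2 fold change of -1.16 ± 0.29 (limma adjusted p = 0.0438). Psmb7, which cuts after basic residues, had 137, 97.8 and 102 RPKM in ASA and 235, 192 and 220 in DMSO libraries, 1.94-fold lower (limma adjusted p = 0.0293). In both genes the highest ASA library, replicate 1, remained well under the lowest DMSO library, replicate 2. The structural subunit gene Psmb3 had 133, 98.6 and 94 RPKM in ASA and 200, 187 and 210 in DMSO libraries, 1.85-fold lower (limma adjusted p = 0.032). Psmb2, also structural, had 254, 234 and 179 RPKM in ASA and 385, 339 and 389 in DMSO libraries, 1.68-fold lower (limma adjusted p = 0.0476). For Psmb2 the lowest ASA library was replicate 3 and not replicate 2.

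The structural subunit gene Psmb4 was the member with the highest level, 539 ± 19.6 RPKM with ASA and 662 ± 59.2 with DMSO (SD, n = 3 each), and its log2 fold change of -0.29, with a 95% interval of -0.7 to 0.11, did not pass. Psmb1 and Psmb6 had log2 fold changes of -0.51 and -0.61 (limma adjusted p = 0.118 and 0.121). Subunits that stand in the same ring differed widely in transcript level per length. Psmb6, the subunit that cuts after acidic residues, had 9.38 ± 0.334 RPKM with ASA and 14.5 ± 2.13 with DMSO (SD, n = 3 each), while the other 6 beta genes averaged 199 to 662 RPKM in DMSO libraries. RefSeq names 3 further Psmb6 loci and 10 further Psmb3 loci, as pseudogenes or like genes. Among the other genes that fell, besides Psma6, it names 3 for Psmc4, 2 each for Psma2 and Psmb7 and 1 for Psma5. Reads of near-identical copies can be assigned elsewhere, so the level of all these genes is uncertain.

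**Figure D2:**
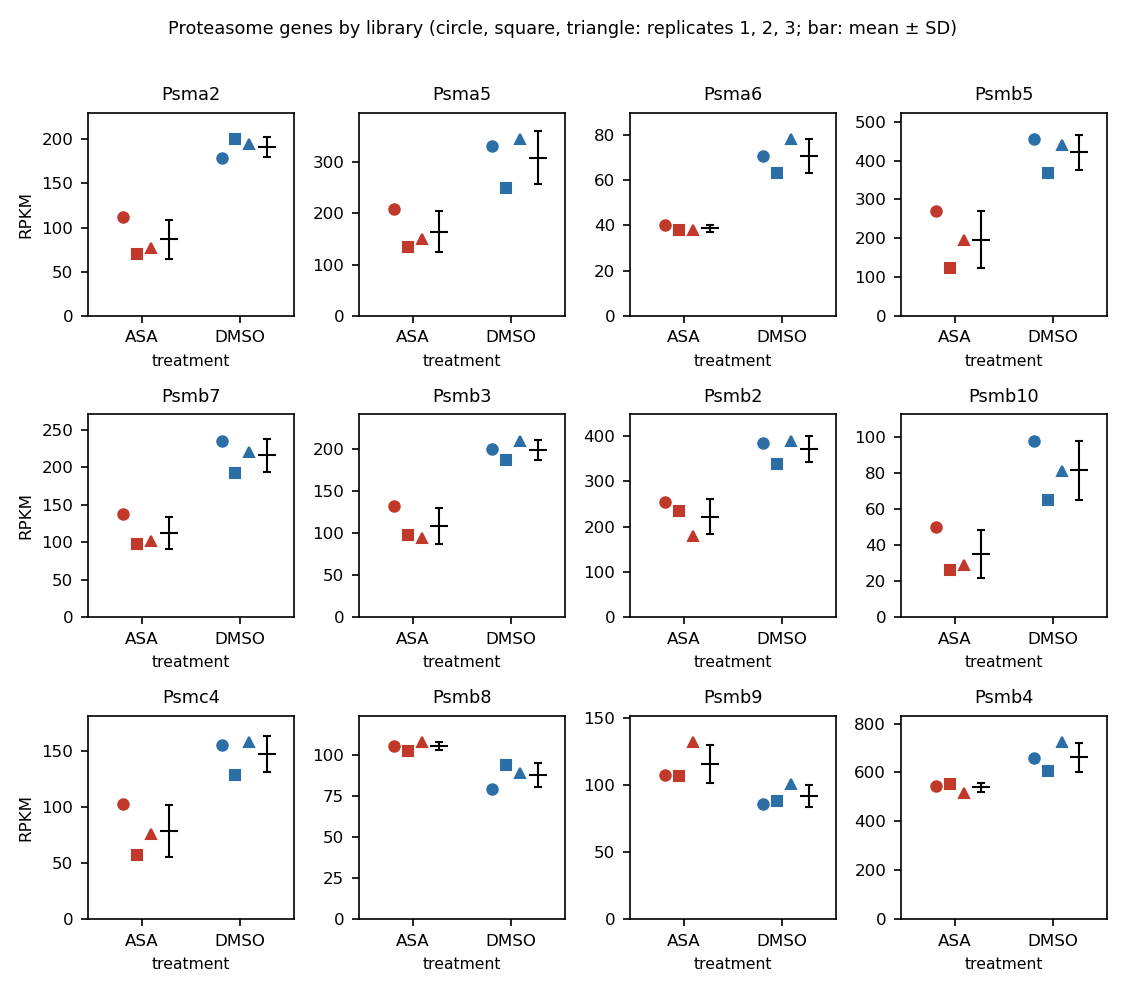
RPKM of the 9 genes that fell and of Psmb8, Psmb9 and Psmb4, by library. Red points are ASA and blue points DMSO libraries (circle, square and triangle for replicates 1, 2 and 3), and black bars give the mean ± SD of 3 libraries. In the 9 genes and Psmb4 all ASA points lie below all DMSO points, and in Psmb8 and Psmb9 above them.

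The immunoproteasome genes did not move together. Psmb10, the inducible counterpart of Psmb7, had 50.4, 26.1 and 29.1 RPKM in ASA replicates 1, 2 and 3 and 98.1, 65.5 and 81.3 in DMSO replicates 1, 2 and 3. It fell 2.38-fold (log2 fold change -1.25 ± 0.29, limma adjusted p = 0.0374), the lowest fold change of the 9 called genes. Psmb8, the counterpart of Psmb5, had 106, 103 and 108 RPKM in ASA and 79.8, 94.2 and 89.6 in DMSO libraries. Psmb9, the counterpart of Psmb6, had 108, 107 and 132 RPKM in ASA and 86.2, 88.4 and 101 in DMSO libraries. In Psmb8 and Psmb9 every ASA library lay above every DMSO library, but the log2 fold changes of 0.27 (95% interval -0.1 to 0.64, limma adjusted p = 0.289) and 0.33 (-0.07 to 0.73, 0.245) did not pass.

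These 2 genes lie on either side of Tap1 on chromosome 20 of Rnor_6.0. From first to last listed exon, Psmb9 spans 3973629 to 3978794, Tap1 spans 3979361 to 3989226 and Psmb8 spans 3990859 to 3992068. Tap1, which encodes a subunit of the transporter that carries proteasome products to major histocompatibility class I molecules, had 54.9, 57.9 and 73.5 RPKM in ASA and 35.5, 38.6 and 37.2 in DMSO libraries. It rose 1.66-fold (log2 fold change 0.73 ± 0.19, limma adjusted p = 0.0465), with no overlap between the groups. Psmb10 lies elsewhere, on chromosome 19 between 37909609 and 37911913.

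The level of each inducible subunit was also set against that of the subunit it replaces, a comparison chosen after the values were seen. The Psmb8 to Psmb5 ratio of RPKM was 0.394, 0.835 and 0.548 in ASA replicates 1, 2 and 3 and 0.175, 0.255 and 0.204 in DMSO replicates 1, 2 and 3, a 2.7-fold higher ratio with no overlap. The Psmb9 to Psmb6 ratio was 11.9, 11 and 14.1 in ASA and 5.17, 7.11 and 7.08 in DMSO libraries, 1.92-fold higher, and rests on the uncertain level of Psmb6. The Psmb10 to Psmb7 ratio was 0.368, 0.267 and 0.285 in ASA and 0.417, 0.341 and 0.369 in DMSO libraries. Its groups overlapped, and the difference in log2 ratio was -0.3. In two-sided exact permutation tests p was 0.1, 0.1 and 0.2 for the Psmb8, Psmb9 and Psmb10 ratios (0.15, 0.15 and 0.2 adjusted over the 3 ratios), and 0.1 is the smallest p that 3 libraries against 3 allow. For the Psmb8 and Psmb9 ratios every ASA library was already higher in the numerator and lower in the denominator. Their separation and p follow from that and add no evidence to the values of the single genes.

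**Figure D3:**
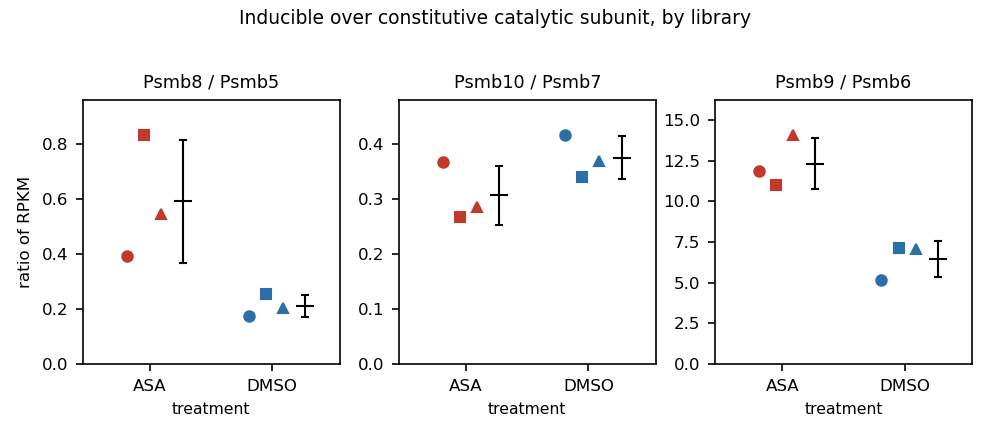
Ratio of the RPKM of each inducible cutting subunit gene to that of the constitutive subunit it replaces, in ASA (red) and DMSO (blue) libraries, with replicates 1, 2 and 3 as circle, square and triangle and black bars for mean ± SD of the ratio. The Psmb8 to Psmb5 and Psmb9 to Psmb6 ratios lie higher in all ASA libraries, and the Psmb10 to Psmb7 ratio overlaps between the groups.

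In the regulatory particle the log2 fold change lay below 0 in all 17 genes, against 53.5% of all tested genes. Every ASA library lay below every DMSO library in 12 of the 17, where 18.8% of all tested genes did so. Of the 17, 1 passed the test as lower, where 4.99% of all tested genes did. The regulatory ATPases, which form the ring that unfolds the substrate, had a median log2 fold change of -0.92, against -0.78 in the alpha and -0.75 in the beta ring. Without ASA replicate 2 these medians were -0.66, -0.67 and -0.79, and with library quality weights -0.83, -0.88 and -0.98, so their order was not stable. Psmc4 had 103, 56.9 and 76.5 RPKM in ASA replicates 1, 2 and 3 and 156, 129 and 158 in DMSO replicates 1, 2 and 3, 1.92-fold lower (limma adjusted p = 0.0478). Psmc1 had the lowest fold change of all members, with 134, 49.3 and 108 RPKM in ASA and 226, 203 and 239 in DMSO libraries. Its log2 fold change of -1.31 ± 0.35 missed the threshold (limma adjusted p = 0.0526), and it passed without ASA replicate 1 and without ASA replicate 2 (0.0158 to 0.189 over the 6 leave-one-out fits). For Psmc1 ASA replicate 2 lay far under the other ASA libraries.

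The same library set the size of several ATPase changes. Psmc5 had 253, 68.3 and 166 RPKM in ASA and 387, 252 and 376 in DMSO libraries, and Psmc3 had 395, 111 and 265 in ASA and 489, 337 and 447 in DMSO libraries. In both genes ASA replicate 1 reached into the range of the DMSO libraries. Their log2 fold changes of -1.23 and -0.89 were -0.7 and -0.37 without ASA replicate 2. Psmc6, by contrast, had an SD of 0.69 RPKM among its ASA libraries (36.7 ± 0.69 with ASA and 57.2 ± 8.71 with DMSO, SD, n = 3 each) with a log2 fold change of -0.63 (limma adjusted p = 0.0677).

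None of the 11 non-ATPase genes passed. In 8 every ASA library lay below every DMSO library, where 18.8% of all tested genes did so. Psmd1, a scaffold subunit, came closest, with 112, 48.4 and 73.4 RPKM in ASA replicates 1, 2 and 3 and 171, 135 and 161 in DMSO replicates 1, 2 and 3. Its log2 fold change was -1.07 ± 0.3 (limma adjusted p = 0.0604), and each of its 23 listed exons was lower in the ASA mean. Psmd14, the enzyme that cuts ubiquitin chains off the substrate, had a log2 fold change of -1.08 (limma adjusted p = 0.0671), and the lid subunit gene Psmd12 one of -1.23 (0.0763). Without ASA replicate 2 the log2 fold changes of Psmd1, Psmd14 and Psmd12 were -0.77, -0.75 and -0.79. The smallest differences were those of Psmd8 and of the ubiquitin receptor Psmd4, both -0.23, with 95% intervals of -0.66 to 0.21 and -0.68 to 0.23 and overlapping groups. The other 6 genes, Psmd2, Psmd3, Psmd6, Psmd7, Psmd11 and Psmd13, had log2 fold changes between -0.89 and -0.47.

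**Figure D4:**
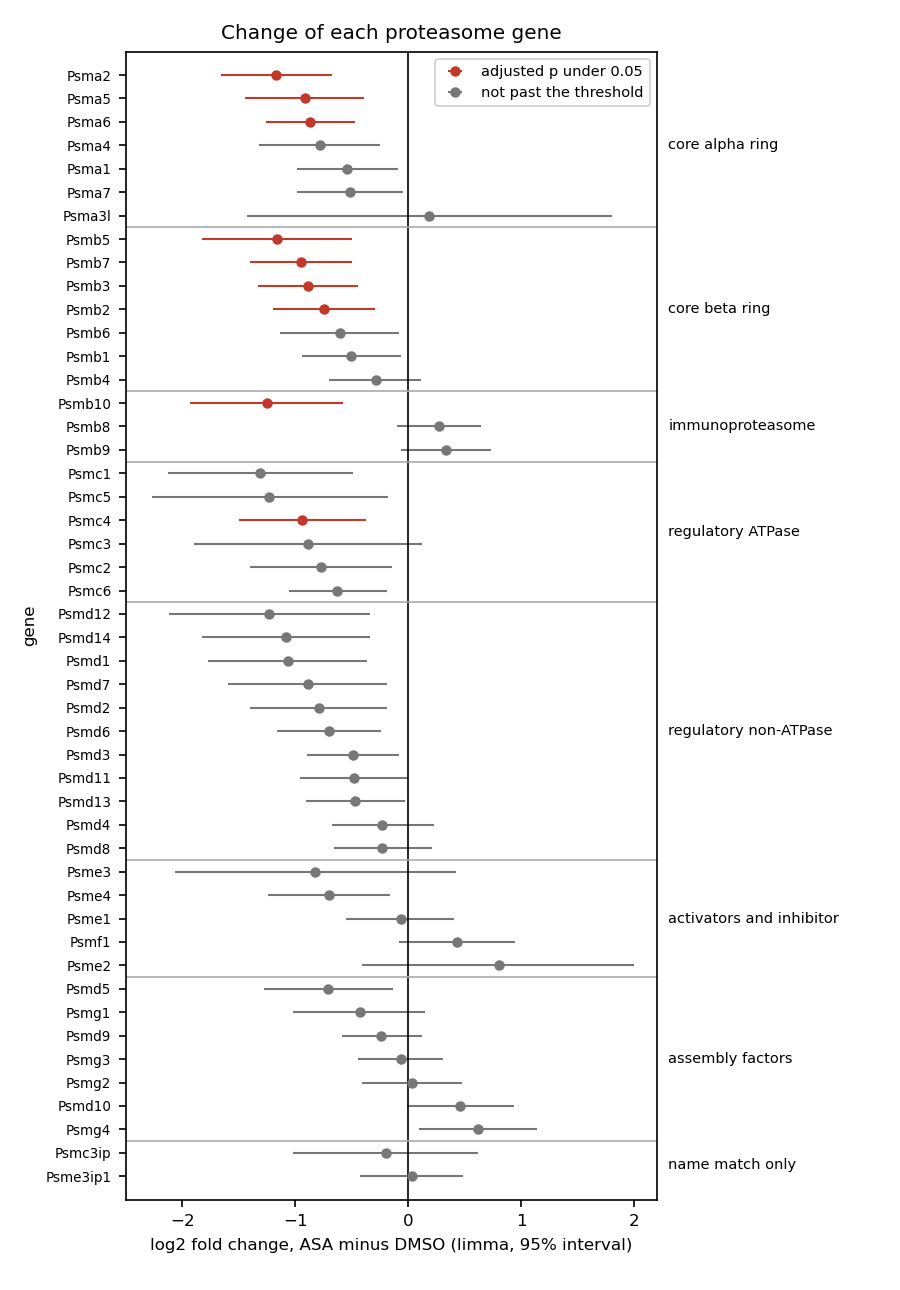
Log2 fold change of each of the 48 genes, ASA minus DMSO, with its 95% interval from limma. Red points passed an adjusted p of 0.05 over all tested genes and grey points did not. The intervals of 25 of the 31 constitutive subunit genes lie below 0. Of all 12502 tested genes 3753 had an unadjusted limma p under 0.05 in either direction. The called genes lie mostly in the alpha and beta rings. The median log2 fold change was -0.77 in these rings and -0.79 in the regulatory particle. Without ASA replicate 2, Psma1, Psmb1, Psmc1, Psmc6, Psmd1, Psmd6, Psmd7 and Psmd12 were called lower too (8.07% of all tested genes were lower).

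The activators and the inhibitor gave no call and no common direction, with a median log2 fold change of -0.07. Psme4, the large activator that caps the core in place of the regulatory particle, had 35.1, 24 and 40.7 RPKM in ASA replicates 1, 2 and 3 and 50.7, 50.8 and 57.6 in DMSO replicates 1, 2 and 3. Its groups did not overlap, its log2 fold change was -0.7 ± 0.23 (limma adjusted p = 0.09), and all 44 of its listed exons were lower in the ASA mean. Psmf1, an inhibitor of the core in vitro, had 78.8, 116 and 80.9 RPKM in ASA and 76.9, 56.8 and 69.9 in DMSO libraries, a log2 fold change of 0.43 (limma adjusted p = 0.235). Its ASA libraries lay above the DMSO libraries, replicate 1 by a small margin.

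Psme1 and Psme2, the interferon-inducible activator pair, had log2 fold changes of -0.07 (95% interval -0.55 to 0.4) and 0.8 (-0.41 to 2). For Psme2 the value rested on ASA replicate 2, with 4.54, 19.8 and 6.4 RPKM in ASA and 4.95, 4.35 and 5.02 in DMSO libraries, and without that library it was 0.18. The nuclear activator gene Psme3 was the reverse, with 48, 9.59 and 32.8 RPKM in ASA and 48.8, 38.6 and 45.1 in DMSO libraries. Its log2 fold change was -0.83 with all libraries and -0.15 without ASA replicate 2. Of the Psme1 and Psme2 values 24.2% and 13% were not whole reads.

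The assembly factors were likewise split, with a median log2 fold change of -0.07 and no call. Psmd5, a chaperone of the base of the regulatory particle, had 90.4, 49.1 and 68.7 RPKM in ASA replicates 1, 2 and 3 and 122, 99 and 111 in DMSO replicates 1, 2 and 3. Its groups did not overlap, and its log2 fold change was -0.71 ± 0.25 (limma adjusted p = 0.098). A further base chaperone, Psmd10 (gankyrin), lay the other way, with 30.8, 28.5 and 36.7 RPKM in ASA and 20.5, 26 and 23.2 in DMSO libraries, a log2 fold change of 0.46 (limma adjusted p = 0.177). Psmg4, which with Psmg3 forms a chaperone of the alpha ring, had 63.5, 99.9 and 69.8 RPKM in ASA and 54, 42.2 and 53.7 in DMSO libraries. Its log2 fold change of 0.62 ± 0.23 did not pass over all genes (limma adjusted p = 0.116, unadjusted p = 0.027). Its partner Psmg3 had a log2 fold change of -0.07, the other alpha ring chaperones Psmg1 and Psmg2 had -0.43 and 0.03, and the base chaperone Psmd9 had -0.24.

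The 2 genes that match by name only showed no call. Psmc3ip had 21.8, 14.5 and 21.3 RPKM in ASA and 31.3, 13.1 and 24.9 in DMSO libraries, with overlapping groups, a log2 fold change of -0.2 and a 95% interval of -1.02 to 0.62. Psme3ip1 had a log2 fold change of 0.03.

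Genes that work with the proteasome were read from the same fit. Of 23 tested partners and regulators 3 rose (6.21% of all tested genes rose) and none fell. They were the transcription factor gene Nfe2l1 (NRF1), known to raise proteasome genes when the protease is inhibited, its activating protease Ddi2, and Nfe2l2 (NRF2), a factor of the response to oxidants. Nfe2l1 had 337, 326 and 327 RPKM in ASA replicates 1, 2 and 3 and 185, 221 and 163 in DMSO replicates 1, 2 and 3, with a log2 fold change of 0.81 ± 0.18 (limma adjusted p = 0.0332). Ddi2 had 33.1, 65.1 and 46.1 RPKM in ASA and 20, 20.6 and 20.1 in DMSO libraries, 2.28-fold higher (limma adjusted p = 0.0349). Nfe2l2 had 103, 115 and 144 RPKM in ASA and 70.3, 61.3 and 70.3 in DMSO libraries, 1.78-fold higher (limma adjusted p = 0.0362). The groups of the 3 genes did not overlap. Transcripts of these regulators were thus higher with ASA and most subunit transcripts lower, and a relation between them was not tested.

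Among the other partners, Sem1, a small subunit of the regulatory particle outside the naming rule, had 475, 245 and 439 RPKM in ASA and 736, 700 and 766 in DMSO libraries, a log2 fold change of -0.98 that did not pass (limma adjusted p = 0.057). Vcp, the ATPase that extracts ubiquitin-tagged proteins, had a log2 fold change of -0.87 (limma adjusted p = 0.0859). The ubiquitin receptor Adrm1 and the glycanase Ngly1, which processes NRF1, had -0.32 and -0.02. Of 5 tested genes of ubiquitin supply 1 fell and none rose, where 4.99% of all tested genes fell and 6.21% rose. Uba1, the main ubiquitin-activating enzyme, had 239, 197 and 173 RPKM in ASA and 373, 302 and 367 in DMSO libraries, 1.72-fold lower (limma adjusted p = 0.0435). Of 9 tested genes of antigen presentation Tap1 was the only call, and it rose, as 6.21% of all tested genes did. Single calls in lists this short are not results about the lists. The calls of Nfe2l2, Ddi2, Uba1 and Tap1 were lost when any DMSO library or ASA replicate 3 was left out, and that of Nfe2l1 when DMSO replicate 1, DMSO replicate 3 or ASA replicate 3 was (limma adjusted p up to 0.204 over these 5 genes). Without a variance trend Nfe2l1, Nfe2l2, Uba1 and Tap1 also missed the threshold (limma adjusted p = 0.0529, 0.0574, 0.0674 and 0.068). With the median exon as the gene value Nfe2l1, Uba1 and Tap1 did (0.102, 0.0502 and 0.0622), and with median-of-ratios scaling Uba1 did (0.0555). Paaf1, Ubb and Tap2 had no row in the table.

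**Figure D5:**
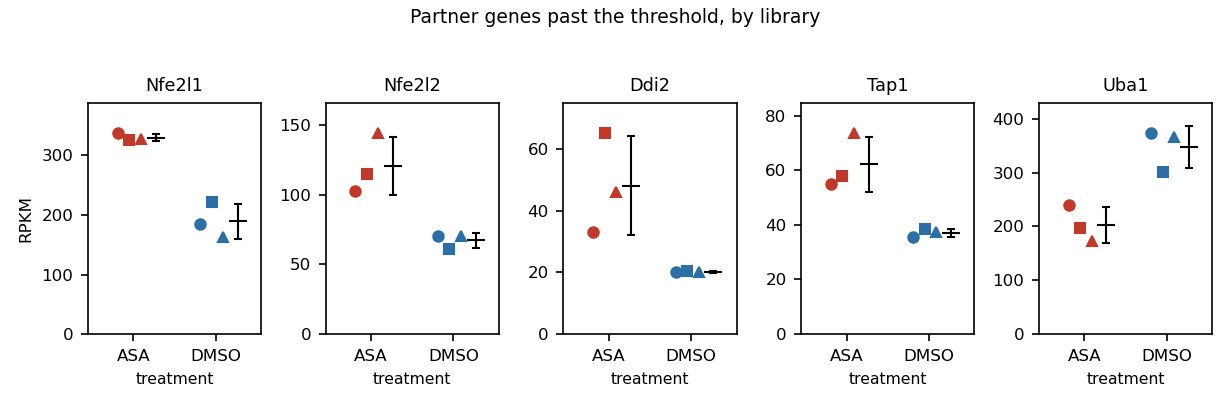
RPKM of the partner genes past the threshold in ASA (red) and DMSO (blue) libraries, with replicates 1, 2 and 3 as circle, square and triangle and black bars for mean ± SD of 3 libraries. Nfe2l1, Nfe2l2, Ddi2 and Tap1 are higher and Uba1 lower in all ASA libraries.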

How the data were processed

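Polyadenylated RNA of 3 ASA and 3 DMSO libraries was analysed, grouped by the treatment label. The replicate numbers used here follow the order of the library titles within each group and pair no libraries. The authors deposited log2 RPKM values, 1 row per exon. Per the submitters' processing notes, the tools were edgeR 3.26.8, TopHat2 2.1.0, Bowtie2, cutadapt 1.14 and Trim Galore 0.4.1 and the build was Rnor_6.0. For the annotation, the strand setting and the read counter, nothing is stated in the labels, so reads of copies and antisense genes may be mixed. The log was undone and an added constant of 0.00292 reads per 1000000 removed. With it gone, the depth of each library was taken as the one that brought its values closest to whole reads. At these depths 95.7% to 96.8% of values were whole reads within 0.02 read, a share that is no separate check of the depths. In every exon row at least 4 libraries had over 10 reads, so exons seen in 1 group only cannot be listed. Reads were summed by gene and divided by listed exon length. Genes averaging 0.5 RPKM or more were tested with limma 3.58.1 (R 4.3.3; trend, two-sided, pseudocount 0.1), after a check on simulated data. The fold changes are on the log2(RPKM + 0.1) scale and understate changes of low genes. Replicates differed beyond sampling noise (chi-square per degree of freedom of 119 or more), and the labels give no pairing. Members, gene lists and tests were chosen with earlier results of these data known. The naming rule took called members, the immunoproteasome, both members nearest to the threshold, the highest and lowest in level, the smallest p of each role, and called list genes. Other genes, and the ratios, were picked after their values were seen. Alternatives were other pseudocounts, filters, scalings, variance models, gene values, and libraries left out.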

Additional observations from a re-analysis of the deposited data

How the results depend on the processing

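No paired analysis was possible because the labels give the libraries no pairing and no replicate numbers. Of 48 members 9 were called lower and 0 higher. The count of lower members was 3 without a variance trend (473 of all genes lower), 3 with the median exon as the gene value (429), 32 (and 3 higher) with library quality weights, and 23 (and 1 higher, Psmd10) with ASA 2 and DMSO 2 left out together. It ranged from 0 to 19 with single libraries left out, from 9 to 13 with the other pseudocounts, filters and scalings, and was 10 with voom. The 3 without a variance trend were Psma2, Psma6 and Psmb7, and the 3 with the median exon were Psma2, Psmb3 and Psmb10. Psma5, Psmb2, Psmb5 and Psmc4 missed the threshold in both (limma adjusted p from 0.0546 to 0.089). Under median-of-ratios and upper-quartile scaling 8 of the 9 genes remained called, and Psmb2 was lost (limma adjusted p = 0.0783 and 0.0561). Over all genes, 624 lower and 776 higher, the counts were 2577 and 3168 with quality weights and 1416 and 1733 with both libraries left out, and ranged from 0 to 1036 and from 0 to 1608 with single libraries left out. The quality weights gave DMSO replicate 3 a weight of 8.71 and ASA replicate 2 one of 0.105, so that fit leans on few libraries. The median log2 fold change of the beta ring was -0.98 with quality weights. That of the assembly factors was -0.18 with quality weights and -0.17 with both libraries left out. That of the immunoproteasome was 0.19 with the median exon, 0.34 with both libraries left out and from 0.2 to 0.3 with single libraries left out. That of the activators and inhibitor was -0.77 with the median exon, -0.22 with both libraries left out, 0.07 with whole-read exons only (an alternative chosen after seeing the data), and from -0.15 to 0.07 with single libraries left out. The cause was not tested. Psma3l turned to -0.57 with quality weights, -0.67 without ASA replicate 2 (up to 0.79 without another single library), -0.72 with both libraries left out and -0.26 with whole-read exons only, and Psmc3ip to 0.06 without DMSO replicate 1 (down to -0.56 without another), none of them past the threshold. No other of the 23 genes of the naming rule changed direction under an alternative run. Outside it, small log2 fold changes turned under 1 or more of 18 alternatives in Psme1 (-0.88 to 0.07), Psmg2 (-0.21 to 0.12), Psme3ip1 (-0.26 to 0.17), Psmd8 (-0.43 to 0.04) and Ngly1 (-0.16 to 0.18), never past the threshold in the turned direction. Every member but Psma3l (66 reads at its lowest) had at least 204 reads in each library, and 3 libraries per group limit every test.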

Other observations

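Summed over their 3 genes, the immunoproteasome subunits had 265, 236 and 268 RPKM in ASA replicates 1, 2 and 3 and 264, 248 and 272 in DMSO replicates 1, 2 and 3, with overlapping groups. The 7 constitutive beta ring genes summed to 1721, 1567 and 1439 RPKM in ASA and 2510, 2201 and 2584 in DMSO libraries, with no overlap. The 7 assembly factors summed to 469, 431 and 433 RPKM in ASA and 511, 457 and 492 in DMSO libraries, again overlapping. These sums are descriptions, and differences between them were not tested.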
